A study of Homo sapiens with 24 samples.

Results

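The transcripts described here encode 10 ligands that human natural killer (NK) cells recognise on a tumor cell, MICA, MICB, ULBP1, ULBP2, ULBP3, RAET1E, RAET1G, NCR3LG1, CD58 and CD48. They were chosen by name, and each was matched by its Ensembl identifier to 1 of the 39321 gene rows of the deposited raw counts. RNA was sequenced from 24 libraries of A498 and 786-O, established cell lines of human clear cell renal cell carcinoma (ccRCC), in 4 groups per line with 3 replicates each. Cells of the Cnsi group received a pool of non-targeting control siRNA, and cells of the PD-L1si group received a pool of siRNA against PD-L1, the immune checkpoint ligand encoded by CD274. Both siRNA pools were used at 20 nM. The Cnsi IFNγ and PD-L1si IFNγ groups were given in addition, 24 hours after transfection, interferon gamma (IFNγ) at 50 ng/mL for 24 hours. All groups therefore share transfection with an siRNA pool, and no untransfected cells were analysed here. The sample labels call the PD-L1 groups knockout, whereas the protocols describe transient silencing with siRNA. The labels do not say whether replicates were separate cultures, so p-values measure only the spread between these libraries. Members are described at the level of mRNA, and neither the protein on the cell surface nor ligand shed into the medium was measured.

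NK cells weigh activating against inhibitory signals from the cells they touch. NKG2D, an activating receptor on NK cells and on cytotoxic T cells, binds a family of proteins related to MHC class I that many tumor cells carry and that healthy cells mostly lack. This family holds the transmembrane proteins MICA and MICB, the ULBP1, ULBP2 and ULBP3 proteins, which are held at the membrane by a lipid anchor, and RAET1E and RAET1G, also called ULBP4 and ULBP5. NCR3LG1 encodes B7-H6, the ligand of the activating receptor NKp30. CD58 (LFA-3) binds CD2 on T and NK cells and helps them adhere, and CD48 binds CD244 and is mostly found on blood cells. IFNγ, which activated T and NK cells release, raises MHC class I on tumor cells, and class I is read mainly by inhibitory NK receptors.

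MICA (chromosome 6, 31399784 to 31415315) and MICB (31494881 to 31511124) lie in the MHC on GRCh38, both on the forward strand. The other NKG2D ligands lie together on the same chromosome, with RAET1E from 149883179 to 149898113 and RAET1G from 149916878 to 149923121 on the reverse strand. ULBP2 follows from 149942014 to 149949235 and ULBP1 from 149963943 to 149973715, both on the forward strand, and ULBP3 from 150061053 to 150069121 on the reverse strand. NCR3LG1 lies on chromosome 11 from 17351800 to 17377341, CD58 on chromosome 1 from 116514534 to 116571039 and CD48 on chromosome 1 from 160678746 to 160711831. Each value is a sum over all annotated exons of a gene, so coding and untranslated exons were not told apart. MICA and MICB are close copies in sequence. The ULBP and RAET1 genes are related, and how alike their sequences are over the whole genes was not measured here. The study's methods give a minimum mapping quality for counted reads and no option to count reads placed at several sites, so reads that fit several copies may be missing from these values. Exons of RAET1E and of MICA overlap another annotated gene on the same strand.

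The bases before the start of 4 of these genes are shown because the genes moved differently with IFNγ. ULBP1 and ULBP2 are neighbours of which ULBP1 rose and ULBP2 fell in the A498-labelled cells, and MICA and MICB are close copies of which MICB rose with IFNγ in the 786-O-labelled cells and MICA did not pass the threshold there. The sequences are the 250 bases before the RefSeq start on GRCh38.p14, on the gene's own strand. They span chr6:149963693-149963942 for ULBP1, chr6:149941764-149942013 for ULBP2, chr6:31403345-31403594 for MICA and chr6:31497895-31498144 for MICB, all on the forward strand. For MICA and MICB the RefSeq start lies inside the gene interval given above, which begins further upstream. Positions before the start refer to the RefSeq start. Capitals mark a match to the heat shock core, GAANNTTC, which reads the same on both strands.
ULBP1: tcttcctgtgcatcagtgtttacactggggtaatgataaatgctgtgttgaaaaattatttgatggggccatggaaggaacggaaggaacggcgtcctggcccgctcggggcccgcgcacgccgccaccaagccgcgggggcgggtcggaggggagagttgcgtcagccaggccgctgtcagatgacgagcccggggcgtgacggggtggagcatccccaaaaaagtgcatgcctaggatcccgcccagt
ULBP2: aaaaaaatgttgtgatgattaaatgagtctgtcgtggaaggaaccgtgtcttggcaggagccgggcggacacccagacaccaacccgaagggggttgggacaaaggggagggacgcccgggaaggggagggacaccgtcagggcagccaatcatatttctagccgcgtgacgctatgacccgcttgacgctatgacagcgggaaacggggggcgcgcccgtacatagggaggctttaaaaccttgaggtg
MICA: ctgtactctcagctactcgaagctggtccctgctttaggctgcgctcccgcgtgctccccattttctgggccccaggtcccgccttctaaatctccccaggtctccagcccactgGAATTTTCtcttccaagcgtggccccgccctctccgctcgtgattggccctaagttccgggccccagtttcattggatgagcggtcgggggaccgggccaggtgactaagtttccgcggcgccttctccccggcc
MICB: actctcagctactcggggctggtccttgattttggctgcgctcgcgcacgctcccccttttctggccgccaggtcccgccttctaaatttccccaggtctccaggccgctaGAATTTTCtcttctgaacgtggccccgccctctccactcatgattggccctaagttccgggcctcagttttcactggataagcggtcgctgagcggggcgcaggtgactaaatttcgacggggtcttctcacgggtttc

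All 10 members had a promoter entry, and RAET1E had 3, so that 12 windows of 300 bases (250 before and 50 after the start) were searched on both strands. The letters of the gamma-activated sequence (GAS), TTCNNNGAA, were found in 1 of the 12 windows, which belongs to RAET1E, and in 7.66% of all 35116 windows of this length. The core read by interferon regulatory factors, GAAANNGAA, was in none of the 12 and in 8.11% of all windows. The CRE letters read by the ATF and CREB factors, TGACGTCA, were also in none of the 12 and in 1.85% of all windows. The heat shock core was found in 3 of the 12 windows, those of MICA, MICB and CD48, and in 6.77% of all. It lies 135 to 128 bases before the start in MICA and 139 to 132 bases before it in MICB. With a shift of 4 bases, 179 of 246 aligned bases (72.8%) of the MICA and MICB sequences were identical, and 84 of 240 (35.0%) was the best ungapped match of ULBP1 and ULBP2 at shifts of up to 50 bases. These are matches of letters in the window searched and were not tested as sites.

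The libraries held 19256316 to 27907526 counts for A498 and 26807875 to 30350461 for 786-O. The lines were sequenced on different instruments according to the study's methods, so line and instrument cannot be told apart and levels were not tested between lines. The study's supplementary tables give the 2 line names the other way round, so each name is used here only as the sample labels give it. In all, 1475 genes with over 1000 summed counts in the A498-labelled libraries were at 0 in all 12 of the other line, ACTB among them, and such rows were taken as not measured there. None of the 10 members was at 0 in every library of a line. CD274 fell with PD-L1si under IFNγ from 194 ± 4.72 to 27.7 ± 0.779 CPM, the counts of a gene relative to the TMM-scaled size of its library, in A498 (SD, n = 3) and from 60.4 ± 5.10 to 31.4 ± 1.17 CPM in 786-O, folds of 0.143 and 0.52. IFNγ raised IRF1, an IFNγ-induced transcription factor, by 4.62 on the log2 scale in A498 and by 4.77 in 786-O with Cnsi. GBP1, an IFNγ-induced guanylate-binding protein, rose by 6.59 in A498 and by 4.97 in 786-O. All 13 renal and epithelial markers reached 1 CPM in A498, and 9 of 13 did in 786-O, where PAX2 and VEGFA were among the rows at 0. Of 10 leukocyte markers 8 had rows, and their summed level was 0.392 to 1.02 CPM in A498 and 5.08 to 13.5 CPM in 786-O. PTPRC, which defines leukocytes, reached at most 0.107 CPM in either line, and the receptor genes KLRK1 (NKG2D), NCR3 (NKp30) and CD2 had 0 to 2 counts per library. HCST, the other gene with a row on this receptor list, had more, 3 to 14 counts per library in A498 and 0 to 18 in 786-O. In A498 it rose past the threshold used below with IFNγ in Cnsi cells, with a log2 fold change of 1.37, and in 786-O it did not pass.

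Values below are CPM after TMM scaling unless stated, and a level per kilobase divides this by the summed exon length of the gene. Genes can be compared with each other only roughly in this way, since the expressed transcripts may not hold all annotated exons. Overlap between libraries reflects the spread of replicates and not this limit. In Cnsi cells labelled A498, ULBP2 had the highest level at 13.6 ± 0.509 CPM per kb (SD, n = 3), followed by MICA at 12.2 ± 0.224 and CD58 at 10.8 ± 0.333. MICB came next at 2.52 ± 0.0636 CPM per kb, then ULBP1 at 2.25 ± 0.0949, NCR3LG1 at 1.81 ± 0.0677 and ULBP3 at 1.74 ± 0.130. Only the last pair overlapped between libraries among these neighbours. RAET1G followed at 0.0983 ± 0.0409 CPM per kb and RAET1E at 0.0055 ± 0.0096, and CD48 had 0 counts in this group.

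The order differed in Cnsi cells labelled 786-O, where MICB was highest at 8.98 ± 0.496 CPM per kb. ULBP2 at 7.21 ± 0.547, CD58 at 5.44 ± 0.398 and MICA at 4.26 ± 0.225 CPM per kb followed without overlap between libraries. ULBP3 at 1.75 ± 0.135 and NCR3LG1 at 1.57 ± 0.0520 CPM per kb overlapped, and RAET1G was lower at 0.353 ± 0.140. The contrast between the lines was widest for ULBP1, which had 74 to 735 counts per library in A498 and 0 to 2 counts per library in 786-O. In bulk RNA, fewer cells that express a gene and less of its RNA per cell cannot be told apart.

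**Figure D1:**
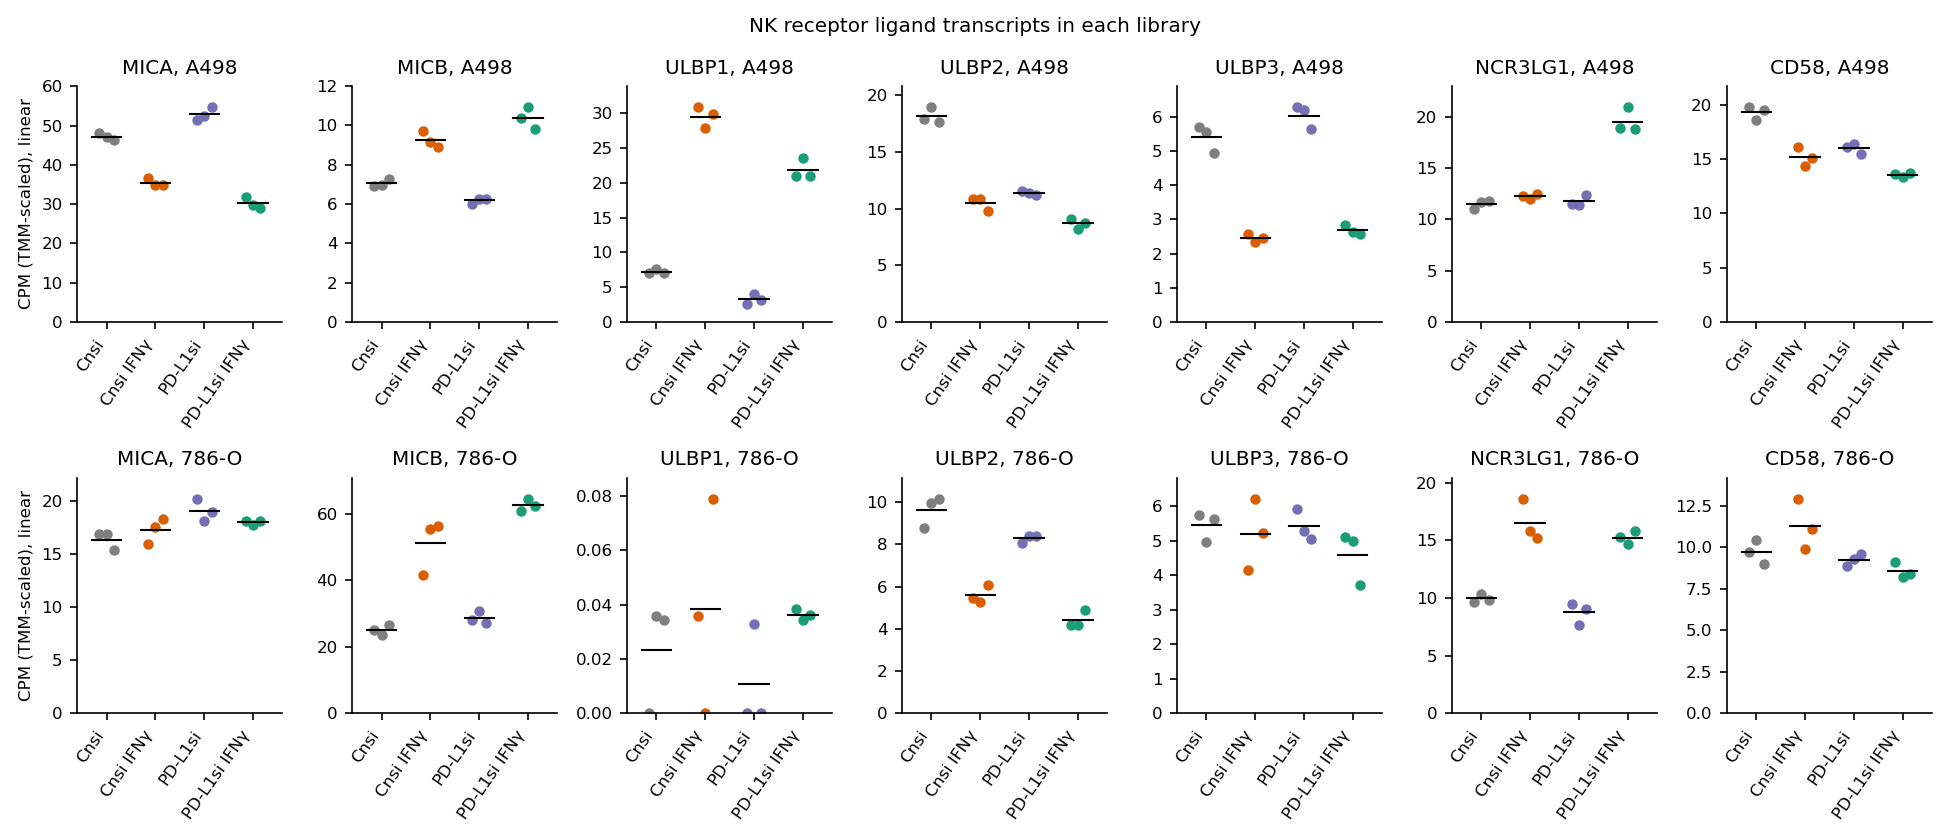
Level of 7 ligand transcripts in each library (points, CPM after TMM scaling, linear axis from 0, own scale in each panel) for the 4 groups (x axis), with the mean of 3 libraries as a line, in A498-labelled cells (upper row) and 786-O-labelled cells (lower row). ULBP1 rose with IFNγ in A498 and had at most 2 counts per library in 786-O, while ULBP2 was lower with IFNγ in every arm of both lines.

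To ask what IFNγ does to these ligands, IFNγ-treated cells were compared with untreated cells under control siRNA. A gene counted as changed when edgeR's quasi-likelihood test gave a Benjamini-Hochberg adjusted p-value under 0.05 and the log2 fold change was above 0.5 or below −0.5. In A498, 8 of the 10 members had enough counts for the test, all but RAET1E and CD48. Of these, 1 rose (ULBP1) and 2 fell (ULBP2 and ULBP3), whereas 18.2% of all 20916 genes tested rose and 18.5% fell, so that such calls were common among all genes too. The median log2 fold change was −0.27 over the 8 members and −0.03 over all genes. Scaling by library size alone, without TMM, moved the median of all genes to −0.17 here and to −0.13 in the same comparison in 786-O, and the share of all calls that were higher from 49.6% to 36.6% here.

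ULBP1 showed the largest change among the members in A498. It stood at 7.10, 7.55 and 6.98 CPM in the 3 Cnsi libraries and at 30.8, 27.8 and 29.9 CPM with IFNγ. The groups were far apart, and the log2 fold change was 2.03 ± 0.08 (SE; edgeR adjusted p = 1.21e-21), a 4.09-fold rise.

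Its neighbour ULBP2 moved the other way, from 17.9, 18.9 and 17.7 CPM to 10.9, 10.9 and 9.77 CPM. Every treated library was below every untreated one, with a log2 fold change of −0.79 ± 0.07 (edgeR adjusted p = 1.11e-11). ULBP3, the third lipid-anchored ligand, fell from 5.70, 5.57 and 4.94 CPM to 2.56, 2.33 and 2.45 CPM, a log2 fold change of −1.14 ± 0.13 (edgeR adjusted p = 5.83e-10).

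Changes of the remaining NKG2D ligands in A498 were smaller. MICA went from 48.0, 47.1 and 46.3 CPM to 36.6, 34.7 and 34.8 CPM, without overlap, but its log2 fold change of −0.41 ± 0.05 (edgeR adjusted p = 7.39e-09) was under the fold threshold. With scaling by library size alone it was −0.55, past the threshold. MICB went from 6.94, 6.96 and 7.26 CPM to 9.73, 9.15 and 8.90 CPM, a log2 fold change of 0.39 ± 0.09 (edgeR adjusted p = 0.00018) that was also under it. The 2 MIC genes thus had log2 fold changes of opposite sign, each with a standard error far smaller than the change.

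Among the ligands of other receptors, CD58 stood at 19.3 ± 0.595 CPM without and 15.2 ± 0.900 CPM with IFNγ (SD, n = 3), a log2 fold change of −0.35 ± 0.07 (edgeR adjusted p = 2.63e-05) under the fold threshold. NCR3LG1 did not pass the test in these cells, with 11.5 ± 0.431 and 12.2 ± 0.242 CPM and a log2 fold change of 0.09 ± 0.08 (edgeR adjusted p = 0.324). Its sign depended on the scaling, since it was −0.05 when counts were scaled by library size alone.

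In 786-O-labelled cells given control siRNA, 8 members were tested, all but ULBP1 and CD48. MICB, NCR3LG1 and RAET1E rose and ULBP2 fell, which makes 3 members higher and 1 lower, against 11.1% and 7.39% of all 21209 genes tested. The median log2 fold change was 0.15 over the 8 members and 0.00 over all genes. With scaling by library size alone, 42.1% in place of 60.0% of all calls were higher. Summed leukocyte markers also moved in this comparison, from 6.11 to 7.26 CPM in the untreated libraries to 12.0 to 12.9 CPM with IFNγ. Most of this sum was ITGAM, at 4.80 to 5.97 and 10.6 to 11.4 CPM, while PTPRC was at 0.039 to 0.107 CPM in the same 6 libraries and CD3D and GNLY were at 0. Their part in the result was not tested.

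MICB had the largest change of the well-expressed members in 786-O. It stood at 25.2, 23.7 and 26.5 CPM in the Cnsi libraries and at 41.7, 55.5 and 56.2 CPM with IFNγ. Replicate 1 of the treated group was lower than the other two but still above every untreated library, and the log2 fold change was 1.02 ± 0.09 (edgeR adjusted p = 1.33e-07).

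ULBP2 fell here as it did in A498, from 8.79, 9.94 and 10.2 CPM to 5.48, 5.29 and 6.07 CPM. The groups did not overlap, with a log2 fold change of −0.78 ± 0.10 (edgeR adjusted p = 4.78e-07). NCR3LG1, the NKp30 ligand, rose from 9.69, 10.3 and 9.88 CPM to 18.6, 15.8 and 15.2 CPM, a log2 fold change of 0.73 ± 0.09 (edgeR adjusted p = 2.2e-07).

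MICA, ULBP3 and CD58 had overlapping groups in 786-O and did not pass the test. MICA stood at 16.4 ± 0.865 and 17.3 ± 1.22 CPM (SD, n = 3), with a log2 fold change of 0.08 ± 0.07 (edgeR adjusted p = 0.443) that became −0.05 with scaling by library size alone. ULBP3 stood at 5.45 ± 0.421 and 5.20 ± 1.03 CPM, with a log2 fold change of −0.07 ± 0.14 (edgeR adjusted p = 0.732). CD58 stood at 9.70 ± 0.709 and 11.3 ± 1.50 CPM, with a log2 fold change of 0.22 ± 0.10 (edgeR adjusted p = 0.0709).

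Whether IFNγ acted differently in the 2 lines was tested by fitting the 24 libraries together and subtracting the log2 effect in A498 from that in 786-O, for the 7 members tested in both. For 4 of them, ULBP3, NCR3LG1, MICB and CD58, the effect was more positive in 786-O past the threshold, and for none was it more negative, against 15.1% and 13.2% of all 17999 genes. ULBP3 differed by 1.07 ± 0.19 (edgeR adjusted p = 1.16e-05), NCR3LG1 by 0.64 ± 0.12 (edgeR adjusted p = 1.46e-05), MICB by 0.62 ± 0.13 (edgeR adjusted p = 0.000129) and CD58 by 0.56 ± 0.11 (edgeR adjusted p = 7.08e-05). Of these, CD58 rested on 1 library, because without replicate 1 of the 786-O Cnsi IFNγ group its difference was 0.45, under the threshold. MICA differed by 0.48 ± 0.09, just under the fold threshold, and the ULBP2 effects differed by 0.00 ± 0.14. ULBP1 could not be compared in this way, since it was not tested in 786-O.

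**Figure D2:**
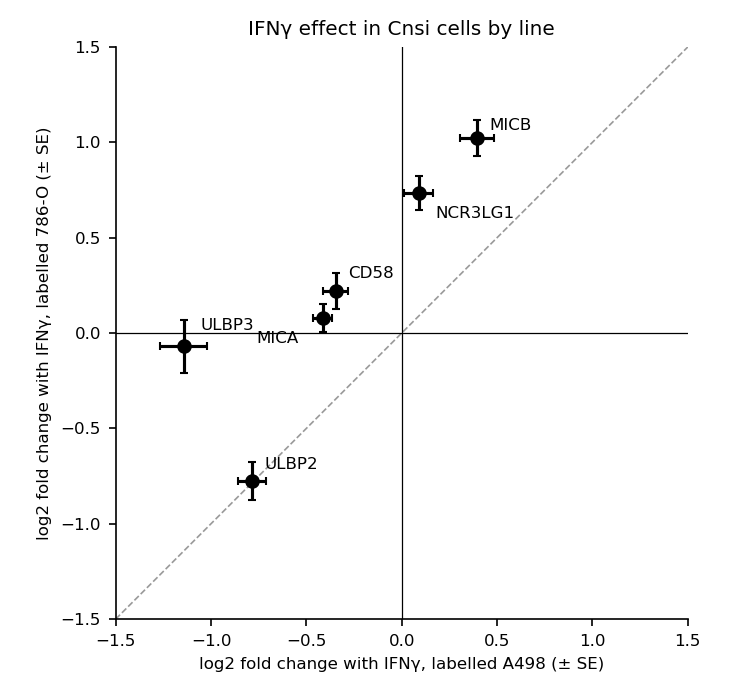
Log2 fold change with IFNγ in Cnsi cells labelled A498 (x axis) against that in Cnsi cells labelled 786-O (y axis) for 6 ligand transcripts, with standard errors as bars and equal effects on the dashed line. ULBP2 lies on the dashed line at −0.79 and −0.78, and the other 5 lie above it.

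The same IFNγ comparison was made in cells with PD-L1 siRNA, and the difference of the 2 IFNγ effects was tested as the interaction of siRNA and IFNγ, positive where the effect was more positive with PD-L1si. In A498 with PD-L1si, 3 of 8 members rose with IFNγ (ULBP1, MICB and NCR3LG1) and 2 fell (MICA and ULBP3), against 17.6% and 15.9% of all genes tested. The median over the 8 members was −0.31, and over all genes −0.02, and 52.4% of all calls were higher, or 37.7% with scaling by library size alone. ULBP1 went from 2.61, 4.04 and 3.10 CPM to 21.0, 23.6 and 21.0 CPM, a log2 fold change of 2.76 ± 0.10 (edgeR adjusted p = 4.6e-23). NCR3LG1 went from 11.5, 11.4 and 12.3 CPM to 18.9, 20.9 and 18.7 CPM, a log2 fold change of 0.73 ± 0.07 (edgeR adjusted p = 5.22e-11). The 2 groups were separate for both genes, and the NKp30 ligand, not past the threshold with control siRNA, was past it here.

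MICA went from 51.4, 52.6 and 54.6 CPM in PD-L1si cells to 31.7, 29.9 and 29.1 CPM with IFNγ, a log2 fold change of −0.81 ± 0.05 (edgeR adjusted p = 7.57e-16). MICB went from 6.02, 6.27 and 6.27 CPM to 10.4, 10.9 and 9.83 CPM, with 0.75 ± 0.09 (edgeR adjusted p = 3.96e-09). The MIC pair again had log2 fold changes of opposite sign, now both past the threshold. ULBP3 fell by 1.16 on the log2 scale, from 6.03 ± 0.351 to 2.68 ± 0.140 CPM (SD, n = 3; edgeR adjusted p = 2.82e-10). ULBP2, at 11.4 ± 0.170 and 8.69 ± 0.478 CPM, had a log2 fold change of −0.39 ± 0.08 (edgeR adjusted p = 0.000116), under the fold threshold, and −0.53, past it, with scaling by library size alone. CD58, at 16.0 ± 0.459 and 13.6 ± 0.190 CPM, had a log2 fold change of −0.24 ± 0.07 (edgeR adjusted p = 0.0039), also under it.

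The interaction in A498 passed the threshold upward for 2 of 8 members and downward for none, against 1.81% and 0.645% of all genes. Of all interaction calls 73.7% were upward, and 72.7% with scaling by library size alone. The interaction was 0.73 ± 0.14 for ULBP1 (edgeR adjusted p = 0.000433) and 0.64 ± 0.10 for NCR3LG1 (edgeR adjusted p = 5.55e-05). These 2 differ in their levels. ULBP1 had its lowest mean in PD-L1si cells without IFNγ, at 3.25 ± 0.730 CPM, whereas NCR3LG1 had its highest mean in PD-L1si IFNγ cells, at 19.5 ± 1.21 CPM (SD, n = 3). MICA at −0.39 ± 0.07 (edgeR adjusted p = 0.000283) and ULBP2 at 0.40 ± 0.11 (edgeR adjusted p = 0.017) stayed under the fold threshold. An upward interaction was not particular to the members. IRF1 at 0.65 ± 0.06 (edgeR adjusted p = 6.55e-10) and GBP1 at 0.997 ± 0.068 (edgeR adjusted p = 1.93e-12) passed upward too, and a link between these and the members was not tested.

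With PD-L1si in 786-O, MICB and NCR3LG1 rose and ULBP2 fell, which makes 2 of 8 members higher and 1 lower, against 11.0% and 7.45% of all genes. The median over the members was −0.10, and 59.6% of all calls were higher, or 41.0% with scaling by library size alone. MICB went from 28.2, 30.9 and 27.3 CPM to 61.0, 64.5 and 62.2 CPM, with 1.12 ± 0.09 (edgeR adjusted p = 3.28e-08), and had here its highest level of the series. NCR3LG1 went from 9.50, 7.70 and 9.08 CPM to 15.3, 14.6 and 15.8 CPM, with 0.80 ± 0.09 (edgeR adjusted p = 7.04e-08). ULBP2 went from 8.08, 8.39 and 8.39 CPM to 4.18, 4.20 and 4.91 CPM, with −0.90 ± 0.10 (edgeR adjusted p = 8.46e-08). All 3 had separate groups, and summed leukocyte markers moved here too, from 5.08 to 5.97 CPM without IFNγ to 12.6 to 13.5 CPM with it, with PTPRC at 0 to 0.069 CPM. The interaction passed the threshold for 0 of 8 members in either direction in edgeR's quasi-likelihood test and in DESeq2, against 0.0377% and 0.0613% of all genes. At the looser cut of an unadjusted p under 0.05 in edgeR's test, 1 member (CD58) passed, and the share of all genes at that cut is not given here.

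The IFNγ comparisons in Cnsi and PD-L1si cells use separate libraries, but each shares a group with the siRNA comparisons that follow, so the values of these are not independent of them.

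**Figure D3:**
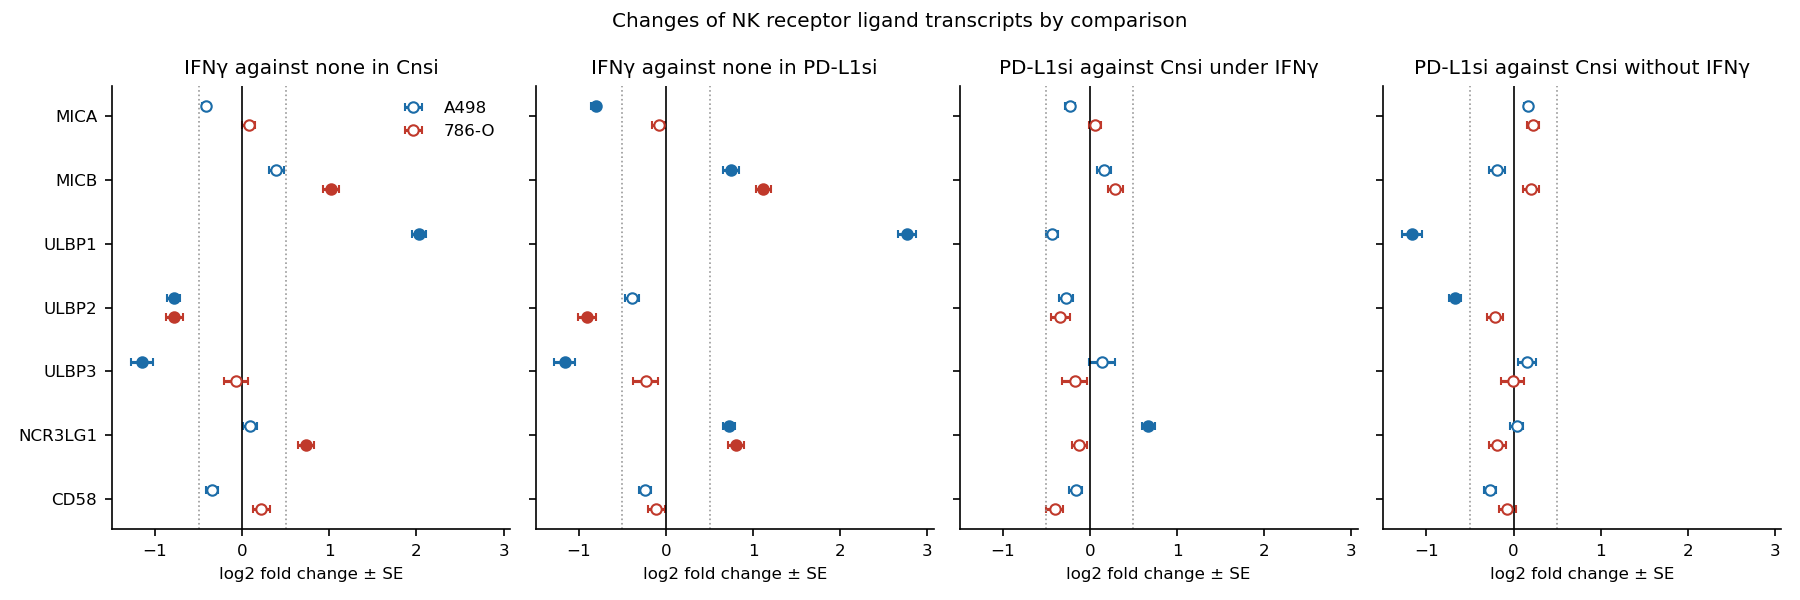
Log2 fold changes (x axis, with standard errors as bars) of 7 ligand transcripts in 4 comparisons, A498-labelled in blue and 786-O-labelled in red. Filled points passed the threshold of adjusted p under 0.05 and a log2 fold change over 0.5 (dotted lines), and ULBP1 was not tested in 786-O. With IFNγ, MICB points are on the right and ULBP2 points on the left in both lines, and the PD-L1 siRNA comparisons hold 3 filled points, all in A498.

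The question of how PD-L1 silencing changes the state of IFNγ-treated cells was addressed by comparing PD-L1si IFNγ with Cnsi IFNγ. In A498, 1 of 8 members was higher past the threshold and none lower, against 4.36% and 5.75% of all genes, and the median over the members was −0.20 against 0.01 over all genes. Of all calls 43.1% were higher, and 64.6% with scaling by library size alone. NCR3LG1 was at 12.3, 12.0 and 12.5 CPM with control siRNA and at 18.9, 20.9 and 18.7 CPM with PD-L1si. These groups did not overlap, and the log2 fold change was 0.67 ± 0.07 (edgeR adjusted p = 2.15e-09). ULBP1 was lower in every PD-L1si library, at 21.9 ± 1.48 against 29.5 ± 1.52 CPM (SD, n = 3), but its log2 fold change of −0.43 ± 0.07 (edgeR adjusted p = 7.65e-06) was under the fold threshold. MICA at −0.23 ± 0.05 (edgeR adjusted p = 0.00116) and ULBP2 at −0.27 ± 0.09 (edgeR adjusted p = 0.0114) were likewise under it.

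Without IFNγ, the same siRNA comparison in A498 gave 0 members higher and 2 lower, ULBP1 and ULBP2, against 2.87% and 5.6% of all genes. The median over the 8 members was −0.23. Of all calls 33.9% were higher, and 55.9% with scaling by library size alone. ULBP1 went from 7.10, 7.55 and 6.98 CPM to 2.61, 4.04 and 3.10 CPM, with a log2 fold change of −1.17 ± 0.12 (edgeR adjusted p = 7.24e-10). ULBP2 went from 17.9, 18.9 and 17.7 CPM to 11.6, 11.4 and 11.2 CPM, with −0.67 ± 0.07 (edgeR adjusted p = 1.17e-09). Every silenced library was below every control library for both genes. IRF1 and GBP1 were lower in this comparison too, by 0.86 and 1.30 on the log2 scale (edgeR adjusted p = 5.05e-17 and 5.3e-20), and the part of this difference in the result was not tested. CD58 at −0.27 ± 0.06 (edgeR adjusted p = 0.00121) and MICA at 0.16 ± 0.05 (edgeR adjusted p = 0.00771) were under the fold threshold.

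In 786-O, no member passed the threshold with PD-L1si in edgeR's quasi-likelihood test or in DESeq2. Under IFNγ 1.29% of all genes were higher and 1.74% lower past the threshold. At an unadjusted p under 0.05 in edgeR's test 3 members passed. This cut is looser, and the share of all genes at it is not given here, so the 2 cannot be compared. The 3 members were CD58 at −0.40 ± 0.10 (edgeR adjusted p = 0.00581), ULBP2 at −0.34 ± 0.11 (edgeR adjusted p = 0.04) and MICB at 0.29 ± 0.09 (edgeR adjusted p = 0.0356), all under the fold threshold. Without IFNγ 1.19% of all genes were higher and 1.63% lower past the threshold. At the looser cut 2 members passed, MICA at 0.22 ± 0.07 (edgeR adjusted p = 0.0439) and ULBP2 at −0.21 ± 0.09 (edgeR adjusted p = 0.147). NCR3LG1, higher with PD-L1si under IFNγ in A498, was at 16.5 ± 1.80 and 15.2 ± 0.594 CPM in the corresponding 786-O groups (SD, n = 3), with −0.12 ± 0.09 (edgeR adjusted p = 0.418). Whether this siRNA effect differs between the lines was not tested, and CD274 itself fell by 2.81 on the log2 scale in A498 and by 0.94 in 786-O.

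The sum and make-up of the 7 NKG2D ligand transcripts were also described per kilobase, without a test. The limit on comparing genes by summed exon length holds for these shares too. In A498 the summed level was 32.5 ± 0.708 CPM per kb in Cnsi cells and 30.4 ± 1.02 with IFNγ, and 27.5 ± 0.397 and 25.8 ± 0.650 in the PD-L1si cells without and with IFNγ (SD, n = 3). The sums with IFNγ were slightly lower, without overlap between libraries, and the make-up differed more. ULBP2 made up 41.9% ± 0.770 of the sum in Cnsi cells and 25.8% ± 1.31 with IFNγ, whereas ULBP1 made up 6.92% ± 0.154 and 30.2% ± 1.15. MICA made up 37.8% ± 0.797 and 30.2% ± 0.128, so that MICA, ULBP1 and ULBP2 held similar shares after IFNγ.

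In 786-O the summed level was 22.6 ± 0.632 CPM per kb in Cnsi cells and 28.9 ± 3.58 with IFNγ, and 23.6 ± 0.567 and 32.2 ± 0.554 in the PD-L1si cells without and with IFNγ. MICB held the largest share in every group, with 39.8% ± 1.28 of the sum in Cnsi cells, 62.9% ± 2.54 in Cnsi IFNγ cells, 43.5% ± 2.03 in PD-L1si cells and 69.4% ± 0.758 in PD-L1si IFNγ cells. ULBP2 held 31.9% ± 2.15 in Cnsi and 14.7% ± 1.82 in Cnsi IFNγ cells. ULBP1 was at most 0.078% of the sum in any 786-O library.

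**Figure D4:**
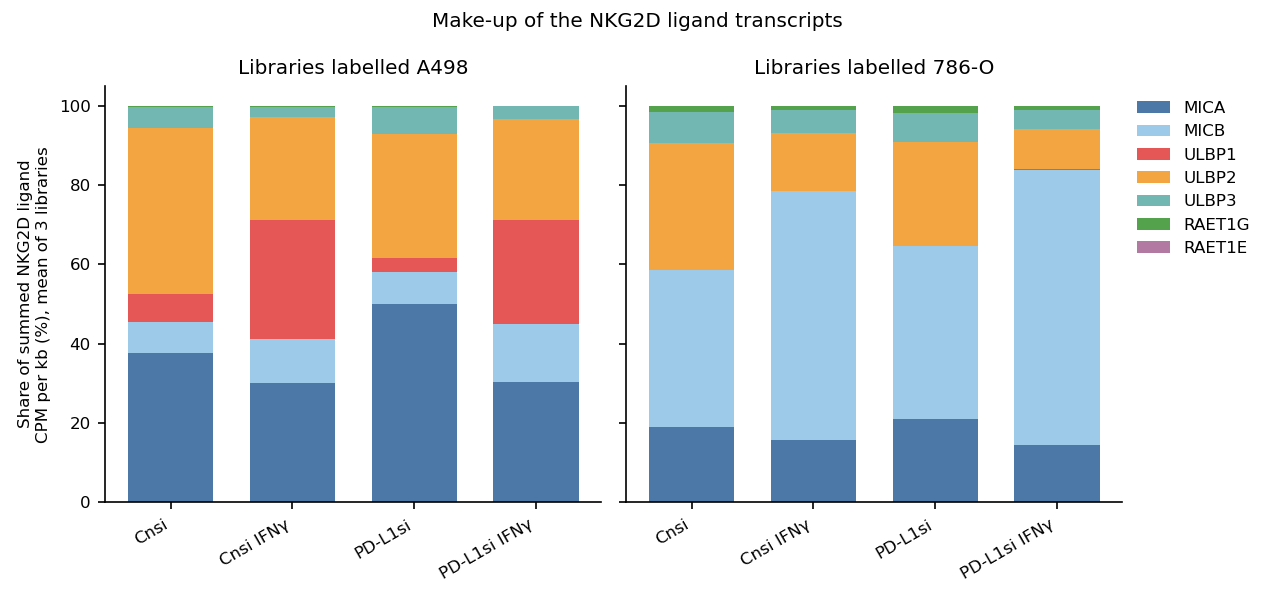
Mean share (y axis, percent) of each of 7 NKG2D ligand transcripts in their summed CPM per kilobase, for the 4 groups of each line (x axis, 3 libraries per bar). In A498 the ULBP1 share rises from 6.92% to 30.2% with IFNγ in Cnsi cells as the ULBP2 share falls from 41.9% to 25.8%, and in 786-O the MICB share rises from 39.8% to 62.9%.

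CD48, RAET1E, RAET1G and, in 786-O, ULBP1 had few counts. CD48, the blood cell ligand, had 1 count in all 12 A498-labelled libraries together and 1 in the 12 of 786-O, and 3 counts over a line correspond to 0.0104 and 0.00879 CPM. RAET1E had 0 to 3 counts per library in A498, where it was not tested. In 786-O it had 7, 3 and 0 counts in the Cnsi libraries and 11, 9 and 7 with IFNγ, so that the groups touched in raw counts but not in CPM. Its log2 fold change of 1.54 ± 0.56 (edgeR adjusted p = 0.0318) was the least stable call among the members, since the adjusted p was 0.0799 in DESeq2 and 0.136 without replicate 3 of the Cnsi group, which left a log2 fold change of 0.98. The call was also lost without replicate 2 of that group or without replicate 1 or 2 of the Cnsi IFNγ group.

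RAET1G had 0 to 5 counts per library in A498 and 6 to 21 in 786-O, and it passed the threshold in no comparison. Under IFNγ in A498 it had 2, 3 and 4 counts with control siRNA and 1, 0 and 0 with PD-L1si (log2 fold change −2.65 ± 1.07, edgeR adjusted p = 0.0532). ULBP1 in 786-O had 9 counts in 12 libraries and was under the filter. For RAET1L, also called ULBP6, which is no member but belongs to the same family, 1, 2 and 6 counts in the Cnsi libraries of 786-O stood against 14, 13 and 9 with IFNγ, a log2 fold change of 2.09 ± 0.52 (edgeR adjusted p = 0.00198).

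Further genes that act on the same receptors or on the ligands were counted from 3 lists. Of 37 further ligands of NK receptors 34 were tested in A498, and 17 rose and 7 fell with IFNγ in Cnsi cells, with a median log2 fold change of 0.67, where 18.2% of all genes tested rose and 18.5% fell. In 786-O 30 were tested, and 15 rose and 3 fell, with a median of 0.81, where 11.1% of all genes rose and 7.39% fell. The genes that rose in both lines include the MHC class I genes HLA-B and HLA-C, which bind inhibitory KIR receptors, HLA-E, which binds the inhibitory receptor NKG2A, and HLA-F and HLA-G. HLA-E rose by 2.68 on the log2 scale in A498 and by 2.39 in 786-O, and HLA-B by 2.77 and 1.87, where reads shared by class I genes may blur the single values. Also higher in both lines were ICAM1, the ligand of the integrin LFA-1 (2.24 and 2.57), VCAM1 (1.50 and 1.46), CLEC2B, the ligand of NKp80 (1.91 and 1.14), CEACAM1, LGALS9 and CD47. CADM1, the ligand of CRTAM, was lower in both (−0.95 and −0.82), as were NECTIN1 (−1.01 and −0.63) and PDGFD, a ligand of NKp44 (−3.71 and −0.68). All of these passed the threshold in edgeR's quasi-likelihood test, whereas of the members tested in both lines ULBP2 was the only one past it in the same direction in both. Among the further ligands named, PDGFD and HLA-G averaged under 1 CPM over the 12 libraries of A498. In Cnsi cells there PDGFD was at 1.37 CPM without and 0.101 CPM with IFNγ, and HLA-G at 0.133 and 1.04 CPM.

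Under IFNγ, PD-L1si changed 4 of the 34 further ligands in A498, where 4.36% of all genes were higher and 5.75% lower, and 3 of the 30 in 786-O, where 1.29% were higher and 1.74% lower. In A498 these were CDH1, which binds KLRG1 (2.27), and COL1A1, which binds LAIR1 (0.72), both higher, and ICAM1 (−0.73) and SLAMF7 (−0.70), both lower. In 786-O CDH1 was higher (0.77), and PDGFD (−0.63) and SLAMF7 (−2.92) were lower. SLAMF7 in both lines and CDH1 in 786-O averaged under 1 CPM over all 12 libraries of the line and were named after their values were seen.

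Proteases, their inhibitors and other enzymes linked to the release of NKG2D ligands from the surface numbered 12, of which 11 were tested in A498 and 10 in 786-O. With IFNγ in Cnsi cells 1 fell in A498, the MIC-cleaving protease ADAM10 (−0.62), and 1 rose in 786-O, the gelatinase MMP2 (2.46, from 0.272 to 1.51 CPM), both named after their values were seen. Of all genes tested 18.2% rose and 18.5% fell with IFNγ in A498, and 11.1% rose and 7.39% fell in 786-O. None of the release genes passed the threshold with PD-L1si under IFNγ in edgeR's quasi-likelihood test in either line. Of 24 transcription factors and stress kinases that act on NKG2D ligand genes, 8 rose and 0 fell in A498, and of 15 tested in 786-O 3 rose and 1 fell, against the same shares of all genes with IFNγ as above (18.2% and 18.5%, and 11.1% and 7.39%). The other 9 of the 24 factors were at 0 in all 786-O libraries, as were 4 of the 37 further ligands and 2 of the 12 release genes. Such rows give no result for that line. IRF1, NFKB1 (0.50 and 0.51) and DDIT3, an endoplasmic reticulum stress factor (2.03 and 0.63), rose in both lines. Under IFNγ, PD-L1si lowered 1 of the 24 factors in A498, the NF-κB subunit RELA (−0.58), and raised 0. There 4.36% of all genes were higher and 5.75% lower. In 786-O PD-L1si lowered 1 of the 15 tested, DDIT3 (−0.64), and raised 0, where 1.29% of all genes were higher and 1.74% lower. Without IFNγ, PD-L1si in A498 lowered 3 of the 24 factors, IRF1, NFKB1 (−0.67) and DDIT3 (−1.01), and 1 of the 11 release genes, the metalloprotease MMP14 (−0.68), where 2.87% of all genes were higher and 5.6% lower. Of the 34 further ligands, CDH1 (0.96) and TNFSF9, the ligand of 4-1BB (0.62), were higher there and ICAM1 (−1.57) and HLA-F (−0.59) lower. Of these, TNFSF9, HLA-F and MMP14 were named after their values were seen. In 786-O none of the 3 lists had a gene past the threshold in this comparison in edgeR's quasi-likelihood test.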

How the data were processed

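RNA sequencing data of 24 libraries, 3 per group and 4 groups in each of 2 lines, were analysed. The authors deposited raw counts per gene, not normalized. According to the submitters' processing notes, bcl2fastq 2.19.0, Trimmomatic 0.36.6, HISAT2 2.1.0 and featureCounts 1.6.3 were used on GRCh38. The study's methods state that exon reads were counted on the forward strand setting with a minimum mapping quality, and list no option for reads mapped to several places. Gene names, positions and summed exon lengths were taken from GENCODE release 44, a later release than the authors used, by Ensembl identifier, which matched 39148 of 39321 rows, and promoter sequences from RefSeq. A gene was kept where any group reached 10 counts in its 3 libraries together. Each line was fitted separately with edgeR 4.0.16 in R 4.3.3 (TMM scaling, robust quasi-likelihood test, all 12 libraries, no covariate), with Benjamini-Hochberg adjustment over all genes tested. Genes passed at an adjusted p-value under 0.05 and a log2 fold change over 0.5. The difference between lines was fitted on all 24 libraries. Alternatives were DESeq2 1.42.0, relative log expression scaling, library size alone (chosen after seeing the data), no filter, protein-coding genes, other thresholds, a replicate block, only the groups compared, and leaving out each library. The 24 replicate pairs differed by more than counting noise (chi-square per degree of freedom 1.628 to 24.305), so none was merged. Scripts were tested on simulated data, and figures were drawn with matplotlib 3.10.9. The members and lists were chosen with earlier results of these data known. All members were named, genes of the lists where they passed the threshold in the same direction in both lines with IFNγ, or in either line with PD-L1si under IFNγ at a mean of at least 1 CPM, and others only as said beside them. Some genes that met this rule are not reported here.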

Additional observations from a re-analysis of the deposited data

Results flagged for a closer look

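The IFNγ effect under control siRNA differed between the lines past the threshold for 4 of the 7 members tested in both, in edgeR's quasi-likelihood test of the difference itself over all 24 libraries. As 786-O minus A498 on the log2 scale, the differences were 1.07 for ULBP3, 0.64 for NCR3LG1, 0.62 for MICB and 0.56 for CD58. ULBP3 fell in A498 and did not pass the test in 786-O, NCR3LG1 rose in 786-O and did not pass it in A498, MICB had a larger log2 fold change in 786-O, and CD58 had log2 fold changes of −0.35 in A498 and 0.22 in 786-O. The lines differ in instrument as well, and line and instrument cannot be told apart.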

How the results depend on the processing

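Counts of members past the threshold moved with the fold threshold. The shares of all genes under these other settings are not reported here. The counts therefore show only how the calls of members move, and not how members compare with all genes. With the adjusted p-value alone, 6 members in place of 3 passed for IFNγ in Cnsi cells of A498, 4 in place of 1 for PD-L1si under IFNγ, 4 in place of 2 for PD-L1si without IFNγ and 4 in place of 2 for the interaction, and in 786-O 3 and 1 in place of 0 for PD-L1si under and without IFNγ. With a log2 fold change over 1, 2 in place of 5 passed for IFNγ in PD-L1si cells of A498, 0 in place of 1 for PD-L1si under IFNγ, 1 in place of 2 without it and 0 in place of 2 for the interaction. In 786-O 2 in place of 4 then passed for IFNγ in Cnsi and 1 in place of 3 in PD-L1si cells, and 1 in place of 4 for the line difference. Among protein-coding genes only, 2 in place of 1 passed for PD-L1si under IFNγ in A498, RAET1G being the second, and leaving out each library in turn gave 1 to 2 there, with RAET1G added without replicate 1 of either group. Leaving out a library gave 3 to 4 for IFNγ in Cnsi cells of 786-O, where RAET1E was lost, and 4 to 5 for the line difference, where CD58 was lost without 786-O Cnsi IFNγ replicate 1 or with no filter (0.49) and MICA gained (0.51 to 0.54). Other counts did not move when a library was left out. With library size alone MICA with IFNγ in Cnsi cells (−0.55) and ULBP2 with IFNγ in PD-L1si cells (−0.53) of A498 also passed, which made 4 and 6 members there. The replicate block changed no count (3 for IFNγ in Cnsi cells of A498, 4 in 786-O and 4 for the line difference). After removal of group means, same-numbered libraries of different groups had correlations of −0.068 to 0.179 in A498 and −0.25 to 0.19 in 786-O. Their mean was 0.036 in A498 and 0.022 in 786-O, against −0.018 and −0.011 for libraries with other numbers. This small difference was not tested. Numbers were not taken as pairs, since the labels do not say that a number marks a shared culture.

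Values near 0 that did not pass the test changed sign. Over fits without 1 library, in A498 RAET1G spanned −0.51 to 0.0498 for IFNγ in Cnsi cells, NCR3LG1 −0.0001 to 0.0696 for PD-L1si without IFNγ and ULBP3 −0.0912 to 0.0216 for the interaction. In 786-O ULBP3 spanned −0.22 to 0.0738 for IFNγ in Cnsi cells, and for PD-L1si without IFNγ ULBP3 spanned −0.0731 to 0.0386, RAET1E −0.21 to 1.39 and RAET1G −0.13 to 0.37. For the interaction in 786-O MICB spanned −0.034 to 0.17, NCR3LG1 −0.0217 to 0.16 and RAET1E −1.60 to 0.0029. ULBP3 for PD-L1si without IFNγ in 786-O was also 0.0102 among protein-coding genes, 0.0003 with only the groups compared and 0.0089 with library size alone. The ULBP2 line difference spanned −0.0591 to 0.0436 without 1 library and was −0.0457 with DESeq2, −0.0451 with relative log expression, −0.0652 with no filter and −0.0197 among protein-coding genes. With library size alone NCR3LG1 was −0.0513 in A498 and MICA −0.0547 in 786-O for IFNγ in Cnsi cells. The causes were not tested. Low counts limit what can be said of RAET1E, RAET1G and CD48 in both lines and of ULBP1 in 786-O, and why these counts are low was not tested.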

Other observations

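HCP5, a non-coding gene of the MHC that lies between MICA and MICB, was looked at after the values of its neighbours were seen. With IFNγ in Cnsi cells it went from 1.82 to 50.1 CPM in A498, a log2 fold change of 4.78, and from 12.0 to 75.8 CPM in 786-O, a log2 fold change of 2.66. Over the same libraries MICA had log2 fold changes of −0.41 and 0.08 and MICB of 0.39 and 1.02.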
